A study of Mus musculus with 8 samples.

Results

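Mir223, Mir144, Mir126a and Mir122 are miRNA genes known as markers of myeloid, erythroid, endothelial and liver cells, and they were followed here in 8 small RNA libraries of mouse spleen B cells. They were chosen by name for the cell types they mark, with earlier results of these data known. Their rows were found by matching RefSeq coordinates (mm10) to the features of both deposited count tables, which gave 4 of 2202 features. Each of the 4 had counts in each of the 8 libraries and was among the 219 features with enough counts to be tested. All mice were Ago2HA/HA, so that AGO2, an Argonaute protein that carries miRNAs, bears an HA epitope and can be pulled down with an antibody to HA. The 4 groups of 2 libraries were the input RNA and the immunoprecipitate (IP) of resting B cells, prepared untouched with CD43 beads, and the input and IP of proliferating B cells, which had been activated in culture. The activating agent, the time in culture and the age of the mice are not given in the labels. Nor do they say that replicates were different mice, so a p-value here reflects only how far these samples spread, and that spread may be technical. The estimate of spread was also largely shared over features, with 4 residual and 36.6 prior degrees of freedom. A control IP from mice lacking the epitope yielded no RNA to sequence, per the labels, and each IP is therefore read against its input.

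miRNAs are cut from hairpin precursors, loaded into Argonaute proteins and guide them to messenger RNAs through the seed at their 5′ end. miR-223 is abundant in neutrophils and monocytes, where it restrains granulocyte activation. miR-144 is transcribed with miR-451a from a GATA1-driven locus in red cell precursors. miR-126 lies in the Egfl7 gene and supports vessel integrity, and it is also made in megakaryocytes and blood stem cells. miR-122 makes up much of the miRNA of hepatocytes. The beads remove cells that carry CD43, a surface protein of T cells and most myeloid cells that resting follicular B cells lack.

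Library totals ranged from 213418 to 1681148 counts, and 3 counts corresponded to between 0.000178% and 0.00141% of a library. Mir150, a miRNA of resting lymphocytes, was counted 110193 and 116820 times in resting input against 7944 and 8204 times in proliferating input. Mir155, which B cell activation induces, had 4340 and 4161 against 42384 and 31622. Mir150 and Mir155 thus separated the states as labelled, which the wider list of lymphocyte miRNAs used below did only in part. Of its 5 tested genes, 2 were higher and 1 was lower in resting input by edgeR, where 49.3% of all tested features passed. The other 2, Mir181a-1 (log2 0.43) and Mir181b-1 (-0.04), did not pass. Replicates correlated across features with r between 0.960 and 0.981 on the scale of log2 CPM, which are counts scaled by library size and TMM factors.

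The mature sequences of 3 of the genes are shown to make clear which RNAs were counted, taken from RefSeq (GRCm38.p6) and written 5′ to 3′ with the seed (bases 2 to 8) in capitals. 
miR-223-3p: uGUCAGUUugucaaauacccca
miR-223-5p: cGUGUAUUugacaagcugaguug
miR-144-3p: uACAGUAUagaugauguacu
miR-144-5p: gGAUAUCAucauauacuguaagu
miR-126a-3p: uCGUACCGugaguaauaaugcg
The 5 seeds differ from each other, and no other mature miRNA in the table has any of them. With the seed cut to bases 2 to 7, miR-144-3p shares it with miR-101a-3p and miR-223-3p with miR-344f-5p. Each of the 5 sequences occurs in 1 hairpin of the table. For Mir126a only the 3p arm was listed, so no sequence is given for reads of its other arm, which the feature would also count.

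The hairpins show how the genes differ as counting units, because a feature sums the reads of both arms. In these the mature arms listed in the table are in capitals.
Mir223, chrX:96242817-96242926, plus strand: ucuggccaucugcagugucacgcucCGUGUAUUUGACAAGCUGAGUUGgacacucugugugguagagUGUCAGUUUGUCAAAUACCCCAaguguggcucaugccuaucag
Mir144, chr11:78073005-78073070, plus strand: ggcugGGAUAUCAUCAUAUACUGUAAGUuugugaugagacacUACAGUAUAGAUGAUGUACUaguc
Mir223 lies within the span of the long noncoding RNA gene F630028O10Rik and has no other feature within 10000 bases. Mir144 lies 99 bases before Mir451a on the same strand. Mir451a and Mir451b occupy the same 72 bases on opposite strands, and neither had a count in any library, so the partner of Mir144 could not be read. No other feature of the tables overlaps Mir122, whose sequence is not shown here. RefSeq does place another miRNA gene, Mir122b, within its span, and Mir122 was named by coordinates without strand. Whether reads of Mir122b would be counted in Mir122 is not known, since the counting rule is not given.

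Mir126a is shown with the bases that no other feature covers in capitals, because Mir126b lies on the opposite strand and covers the rest.
Mir126a, chr2:26591357-26591429, plus strand: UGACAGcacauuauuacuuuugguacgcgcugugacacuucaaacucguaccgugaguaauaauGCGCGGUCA
Of the 22 bases of miR-126a-3p, 19 lie inside Mir126b and 3 outside. Mir126b had no count in any library and Mir126a had 3349 in all. Of 61 features that overlap another feature of a different span, 7 had any count, and Mir126a held 3349 of their 3474 counts. Of 6 features that share their whole span with another, 0 had a count, against 553 of 2135 features with no overlap (25.9%). The sources used here do not give the counting rule for such reads. The level of Mir126a may therefore be a partial one, while comparisons between libraries use the same features throughout.

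Mir223 was the most counted of the 4 in all but the proliferating IPs. Its counts in resting cells were 4138 and 11042 (inputs) and 24418 and 23188 (IPs), and in proliferating cells 611 and 723 (inputs) and 846 and 957 (IPs). As shares of all counts the resting IPs held 1.45% (95% exact Clopper-Pearson interval 1.43 to 1.47) and 2.94% (2.90 to 2.98), and the proliferating IPs 0.106% (0.0993 to 0.114) and 0.0695% (0.0652 to 0.0741). These intervals cover counting error only, since sequenced molecules of a library are not independent replicates. Every resting library lay above every proliferating library. Among all features Mir223 ranked between 10 and 18 by count in the resting libraries and between 27 and 58 in the proliferating ones.

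The group means of Mir223 fell in the order resting IP, 24645 ± 9066 CPM (mean ± SD, n = 2 here and below), resting input, 19361 ± 10989.5 CPM, proliferating input, 2131 ± 574 CPM, and proliferating IP, 1025 ± 301 CPM. Resting cells were higher in the input by 3.18 on the log2 scale (SE 0.33, edgeR quasi-likelihood test with Benjamini-Hochberg adjustment over 219 features, adjusted p = 1.9e-10). They were higher in the IP by 4.59 (SE 0.35, edgeR adjusted p = 3.7e-14). Both calls held in 17 of 17 alternative settings, and the value in the input was 2.53 without resting input replicate 2. The size of the p-value depended on the setting. In the input the edgeR adjusted p was 1.2e-04 with library totals and 8.4e-36 without a filter on low counts. In bulk RNA, fewer cells of a type and less RNA per cell cannot be told apart, here and for the other 3 genes.

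Mir144 was higher in resting cells too, at far fewer counts. Its counts in resting cells were 41 and 91 (inputs) and 115 and 185 (IPs), and in proliferating cells 5 and 5 (inputs) and 3 and 3 (IPs). In the resting libraries its share ranged from 0.00684% (95% exact interval 0.00565 to 0.00821) in resting IP replicate 1 to 0.0235% (0.0190 to 0.0289) in resting input replicate 2. In the proliferating libraries its highest share was 0.00234% (0.000761 to 0.00547), so that no proliferating library reached a resting one. Mean levels were 169 ± 76.9 CPM in the resting input, 167 ± 114 CPM in the resting IP, 15.8 ± 2.42 CPM in the proliferating input and 3.47 ± 1.30 CPM in the proliferating IP. The states differed by 3.42 (log2, SE 0.70, edgeR adjusted p = 9.6e-05) in the input and by 5.58 in the IP (SE 0.75, edgeR adjusted p = 4.0e-08). Both calls held in 17 of 17 alternatives, and the value in the IP was 6.24 without resting IP replicate 1 and 4.54 without replicate 2. By size the difference in the IP ranked 3 of 219 features for Mir144 and 8 for Mir223.

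**Figure D1:**
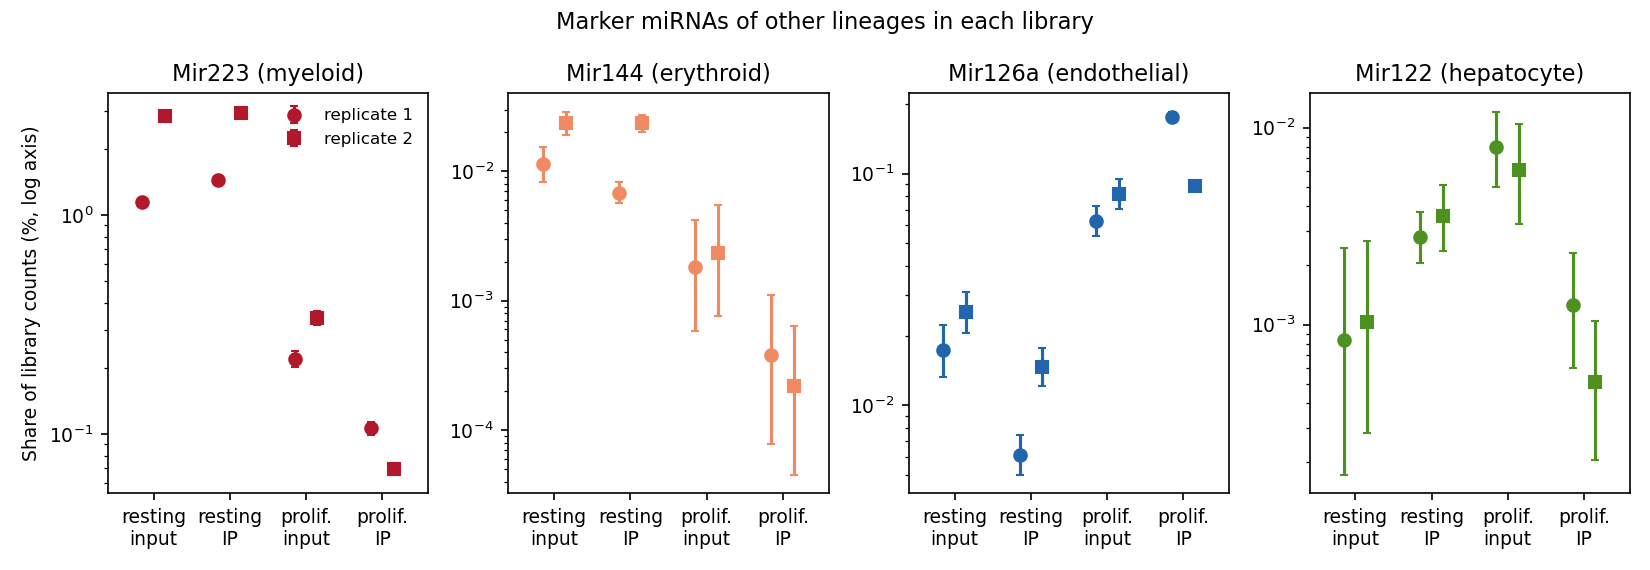
Share of all counts of a library (percent, log axis) for Mir223, Mir144, Mir126a and Mir122 in the 4 groups, with 1 point for each library (circles replicate 1, squares replicate 2) and bars for the 95% exact interval of counting error. Mir223 and Mir144 are higher in all 4 resting libraries than in any proliferating library, Mir126a is lower in all of them, and Mir122 is highest in the proliferating inputs.

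Mir126a went the other way. Its counts in resting cells were 62 and 98 (inputs) and 103 and 116 (IPs), and in proliferating cells 173 and 175 (inputs) and 1399 and 1223 (IPs). The lowest share was 0.00613% (95% exact interval 0.00500 to 0.00743) in resting IP replicate 1 and the highest was 0.176% (0.167 to 0.185) in proliferating IP replicate 1. Every proliferating library was above every resting library. Mean levels rose in the order resting IP, 116 ± 55.5 CPM, resting input, 207 ± 47.5 CPM, proliferating input, 551 ± 88.8 CPM, and proliferating IP, 1543 ± 714 CPM. Resting cells were lower in the input, with a log2 difference of -1.41 (SE 0.38, edgeR adjusted p = 0.0024). In the IP the log2 difference was -3.74 (SE 0.41, edgeR adjusted p = 2.8e-10). The call in the IP held in 17 of 17 alternatives, with -4.41 without resting IP replicate 2. The call in the input was lost with upper-quartile factors (-1.03, edgeR adjusted p = 0.074) and without proliferating input replicate 2 (-1.37, edgeR adjusted p = 0.094).

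Mir122 was the least counted. Its counts in resting cells were 3 and 4 (inputs) and 47 and 28 (IPs), and in proliferating cells 22 and 13 (inputs) and 10 and 7 (IPs). Its share peaked at 0.00796% (95% exact interval 0.00499 to 0.0121) and 0.00609% (0.00324 to 0.0104) in the proliferating inputs, whereas the resting inputs held 0.000836% (0.000172 to 0.00244) and 0.00103% (0.000282 to 0.00265). The inputs of both states did not overlap, and neither did the IPs, but the direction was opposite. Mean levels were 9.12 ± 1.01 CPM in the resting input, 36.3 ± 1.70 CPM in the resting IP, 53.9 ± 11.7 CPM in the proliferating input and 10.3 ± 6.15 CPM in the proliferating IP. The lower level in the resting input passed the test (log2 -2.54, SE 0.96, edgeR adjusted p = 0.027), while the value in the IP did not (1.86, SE 0.85, edgeR adjusted p = 0.064).

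Neither Mir122 result was firm. The call in the input was lost in 8 of 16 alternatives, with upper-quartile factors (-2.17, edgeR adjusted p = 0.058), without a filter (-2.54, edgeR adjusted p = 0.061) and without resting input replicate 1 (-2.48), resting input replicate 2 (-2.55), resting IP replicate 1 (-2.32), resting IP replicate 2 (-2.34), proliferating input replicate 1 (-2.29) or proliferating IP replicate 1 (-2.34). The value in the IP passed in 6 of 16, with adjusted p between 0.018 and 0.26 over all of them. It passed without resting input replicate 1 (2.27), without proliferating input replicate 1 (2.17) and without proliferating input replicate 2 (2.26).

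Read against all features, the number of calls between states was not particular to these genes. In the input 4 of 4 passed, where 49.3% of the 219 tested features did, and in the IP 3 of 4 passed, where 52.1% did. Their directions were split, with Mir223 and Mir144 higher and Mir126a lower in resting cells in both fractions. The 4 had a median log2 difference of 0.89 (input) and 3.22 (IP), beside -0.04 and -0.21 over all tested features. Separation of the libraries of both states without overlap is given as description only, since its share over all features was not counted.

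The comparison of IP with input asks whether a miRNA is over- or under-represented with AGO2. In resting cells none of the 4 passed (edgeR, 0 of 4, beside 28.8% of all tested features), with 2 at an unadjusted p under 0.05 and 0 by DESeq2. Mir223 was at 0.35 (log2, SE 0.30, edgeR adjusted p = 0.40) and Mir144 at -0.03 (SE 0.55, edgeR adjusted p = 0.97). Mir126a was at -0.85 (SE 0.39, edgeR adjusted p = 0.091) and Mir122 at 1.97 (SE 0.94, edgeR adjusted p = 0.11). The resting IPs and inputs overlapped for Mir223 and Mir144. The Mir223, Mir126a and Mir144 values turned on single libraries, while Mir122 missed the threshold in 16 of 16 alternatives (1.68 to 2.22). Mir223 passed without resting input replicate 2 (1.25, edgeR adjusted p = 0.0037) and without resting IP replicate 1 (0.62, edgeR adjusted p = 0.047), and was at -0.33 without resting IP replicate 2. Mir126a passed without resting IP replicate 2 (-1.67, edgeR adjusted p = 6.6e-04), and Mir144 was at 0.72 without resting input replicate 2.

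In proliferating cells 3 of 4 passed, beside 26.9% of all tested features. Mir223 was lower in the IP than in the input (log2 -1.06, SE 0.31, edgeR adjusted p = 0.0091), as was Mir122 (-2.43, SE 0.88, edgeR adjusted p = 0.033). Mir126a was higher in the IP (1.48, SE 0.37, edgeR adjusted p = 0.0021). Mir144 was at -2.19 (SE 0.89, edgeR adjusted p = 0.062), with 10 counts in the inputs and 6 in the IPs together. The shares of the IPs and inputs did not overlap for any of the 4, but how many of all tested features separate likewise was not counted. For Mir126a the lower IP, 0.0889% (95% exact interval 0.0840 to 0.0940), lay within the counting interval of the higher input, 0.0820% (0.0703 to 0.0951).

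These calls rested on few libraries. Mir223 missed the threshold in 7 of 17 alternatives, among them the removal of proliferating input replicate 1 (-1.40) or 2 (-1.07) and of proliferating IP replicate 1 (-1.34) or 2 (-0.83). Mir126a missed it in 4 of 17, with library totals (0.87, edgeR adjusted p = 0.13) and without proliferating input replicate 1 (1.23), proliferating input replicate 2 (1.35) or proliferating IP replicate 1 (0.97). Mir122 missed it in 7 of 16, without resting IP replicate 1 (-2.37) or 2 (-2.38), proliferating input replicate 1 (-2.27) or 2 (-2.94), proliferating IP replicate 1 (-3.08) or 2 (-1.89), and without a filter (-2.52). Mir144 passed with library totals (-2.79, edgeR adjusted p = 0.035) and without resting input replicate 1 (-2.47), resting input replicate 2 (-2.24) or resting IP replicate 1 (-2.13). The direction was the same for each gene in all of these settings.

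The test of the difference itself, IP over input in resting minus IP over input in proliferating cells, passed for 3 of 4, beside 17.4% of all tested features. Mir122 had the largest value of the 4 at 4.40 (log2, SE 1.28, edgeR adjusted p = 0.013), which ranked 8 of 219 by size. Mir223 followed the same direction at 1.40 (SE 0.43, edgeR adjusted p = 0.018). Mir126a had the opposite sign, at -2.34 (SE 0.53, edgeR adjusted p = 0.0020). Mir144 was at 2.16 (SE 1.04, edgeR adjusted p = 0.16) and did not pass, and it was at 0.92 without resting IP replicate 2 and 2.96 without resting input replicate 2. The Mir223 call was lost in 11 of 16 alternatives, among them the removal of resting IP replicate 2 (0.69), proliferating input replicate 1 (2.0) or 2 (1.67) and proliferating IP replicate 1 (1.56) or 2 (1.30), and the value was 2.32 without resting input replicate 2. Mir126a kept its call in 13 of 16, with -3.20 without resting IP replicate 2, losing it with library totals (-1.93) and without proliferating input replicate 1 (-1.82) or 2 (-1.94). Mir122 kept it in 12 of 15, losing it without resting IP replicate 2 (4.06), proliferating input replicate 1 (4.46) or proliferating IP replicate 2 (3.96), and was at 5.13 without proliferating input replicate 2.

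**Figure D2:**
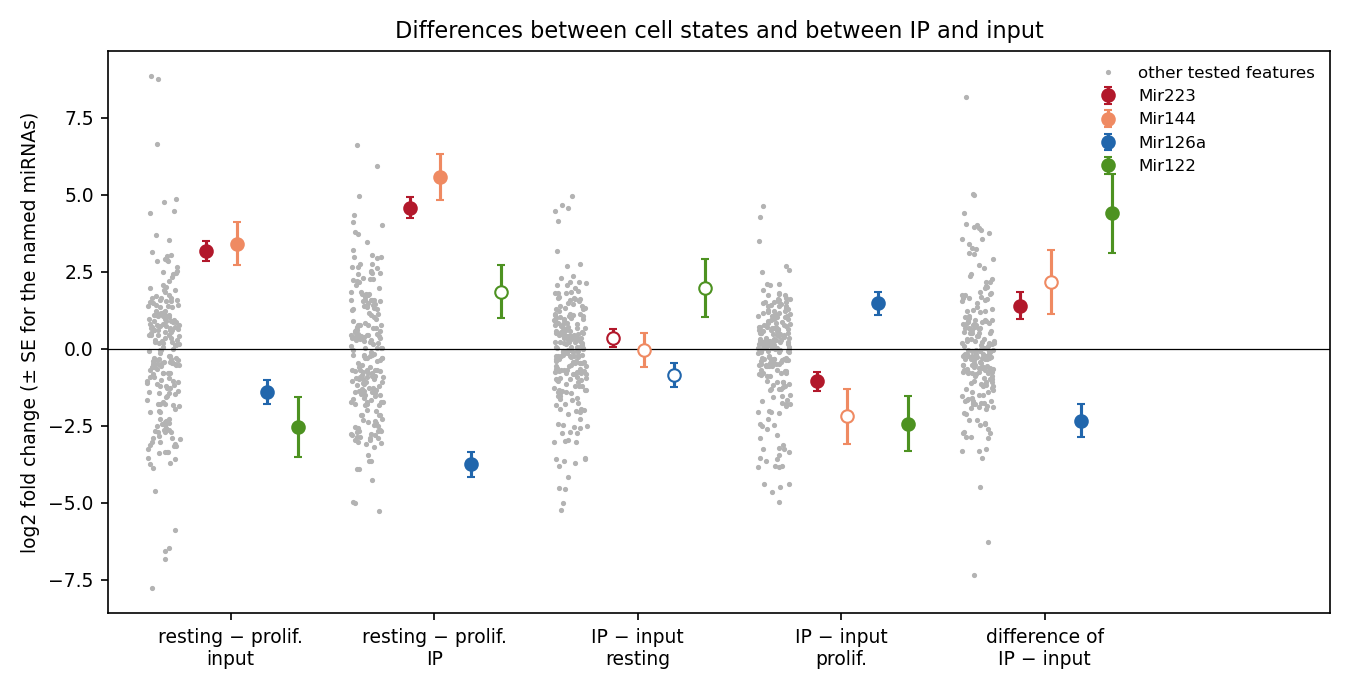
Log2 fold changes in the 5 comparisons, with ± SE for the 4 marker miRNAs (filled where the edgeR adjusted p is under 0.05, open where it is not) and grey dots for the other tested features; the last column is IP over input in resting minus the same in proliferating cells. Mir223 and Mir144 stand at 3.18 and 3.42 in the input and at 4.59 and 5.58 in the IP, while Mir126a is on the other side of 0 in both.

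Ratios of counts within a library are free of library scaling, and feature length cancels when a ratio is compared between libraries. Mir223 and Mir144 kept a like ratio in the inputs of both states. For the resting inputs their ratio was 101 (95% exact counting interval 74.3 to 141) and 121 (98.7 to 151), for the resting IPs 212 (177 to 257) and 125 (108 to 146), and for the proliferating inputs 122 (52.1 to 378) and 145 (61.7 to 447). In the proliferating IPs, with 3 counts of Mir144 each, it was 282 (96.2 to 1370.2) and 319 (109 to 1549.6). The intervals of the inputs of both states overlapped although the level of Mir223 differed 9.09-fold between them. The ratio to the lymphocyte miRNA Mir150 overlapped between the inputs as well, so this was not particular to the pair: Mir223 had 3.76% and 9.45% of the counts of Mir150 in resting input and 7.69% and 8.81% in proliferating input. In the IPs it had 10.3% and 15.4% against 3.46% and 4.13%.

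The ratio of Mir223 to Mir126a, by contrast, did not keep its level. In resting cells the inputs had 66.7 (95% exact counting interval 52.0 to 87.2) and 113 (92.4 to 139), and the IPs 237 (195 to 291) and 199.9 (167 to 242). It was 3.53 (2.98 to 4.21) and 4.13 (3.50 to 4.90) in the proliferating inputs, and below 1 in the proliferating IPs, at 0.605 (0.555 to 0.659) and 0.783 (0.718 to 0.852). No library of any group overlapped with those of another group in this ratio. Together the 4 genes made up between 1.18% and 2.98% of a resting library and between 0.159% and 0.429% of a proliferating one. Mir223 gave from 97.5% to 98.9% of that sum in resting libraries, and 37.5% and 43.7% in the proliferating IPs, where Mir126a gave 62.0% and 55.8%.

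The ratio of Mir126a to Mir122 set the IPs of the states apart, with the inputs of both between them. It was lowest in the resting IPs, at 2.19 (95% exact counting interval 1.54 to 3.16) and 4.14 (2.72 to 6.50), and highest in the proliferating IPs, at 139.9 (75.8 to 292) and 175 (84.5 to 435). The inputs lay between, at 20.7 (6.75 to 103) and 24.5 (9.27 to 91.7) in resting and 7.86 (5.03 to 12.9) and 13.5 (7.67 to 25.8) in proliferating cells. The counting intervals of the inputs of both states overlapped, with only 3 and 4 counts of Mir122 in the resting inputs.

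**Figure D3:**
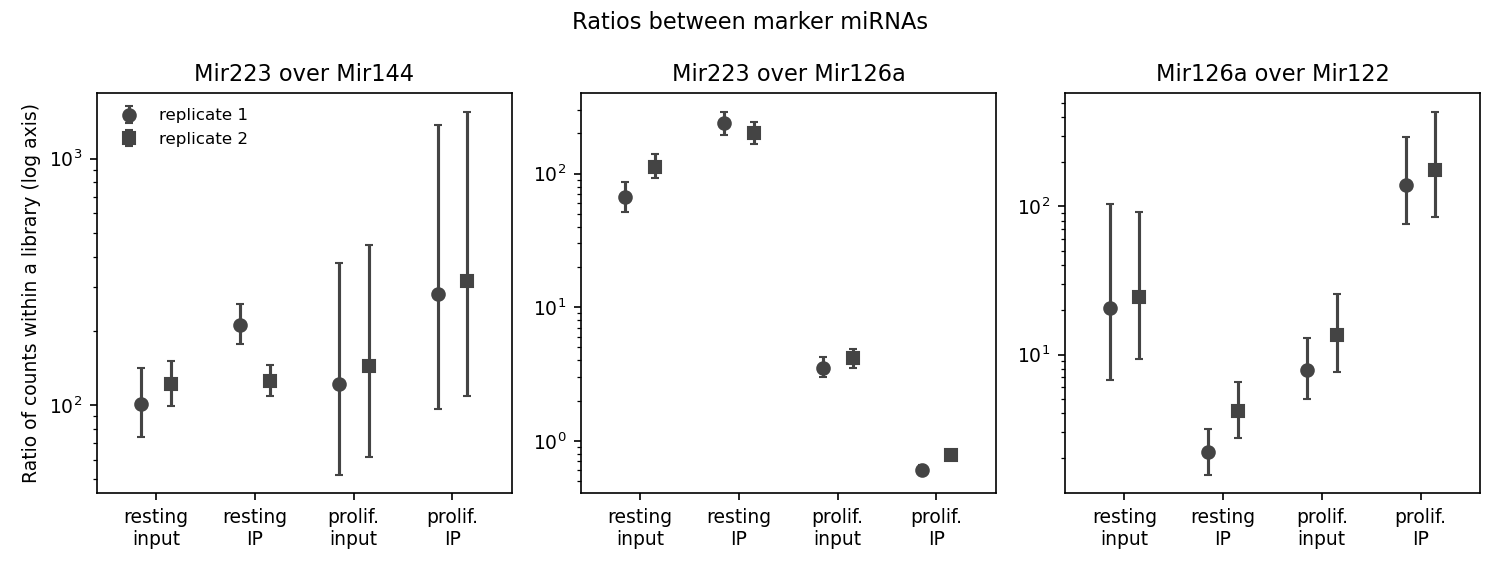
Ratio of counts of Mir223 to Mir144, Mir223 to Mir126a and Mir126a to Mir122 within each library (log axes), with 95% exact counting intervals; circles are replicate 1 and squares replicate 2. Mir223 to Mir144 is 101 to 145 in the inputs of both states, while Mir223 to Mir126a falls from 66.7 or more in resting libraries to 4.13 or less in proliferating ones.

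Within groups the replicates differed by more than counting error for the abundant genes. In both resting groups replicate 2 was higher for all 4 genes. The share of Mir223 was 2.48 times as high in replicate 2 of the resting input and 2.02 times as high in replicate 2 of the resting IP, and that of Mir144 was 2.06 and 3.43 times as high. For Mir126a the ratios were 1.47 and 2.40, and for Mir122 1.24 and 1.27, both within counting error. In the proliferating IP replicate 1 was higher for all 4 genes, by 1.53 times for Mir223, 1.73 for Mir144, 1.98 for Mir126a and 2.47 for Mir122, where Mir144 had 3 counts in each. The proliferating input was mixed. There replicate 2 was higher for Mir223 (1.53 times), Mir144 (1.29) and Mir126a (1.31), and replicate 1 for Mir122 (1.31).

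The features whose level ran most like each gene were taken by the Pearson correlation of log2 CPM over the 8 libraries, which fall into 2 states and share their tables, so the values describe likeness only. Among all tested features Mir144 was the most like Mir223 (r = 0.99), followed by Mir16-1 (0.97), a gene of the miR-15 and miR-16 cluster, and Mir1941 (0.96). The same 2 features followed Mir223 in likeness to Mir144, Mir16-1 and Mir1941 at 0.96 each. Mir126a was most like Mir17 (0.96), of the miR-17-92 cluster, then Mir1983 (0.95) and Mir674 (0.95). Mir122 had no close match, with Mir1981 at 0.82, Mir6399 at 0.77 and Mir6943 at 0.72. Mir1941, Mir6399 and Mir6943 had 31 counts or fewer in every library. Mir223 and Mir126a ran against each other (r = -0.87), and Mir122 showed little relation to Mir223 (0.07), Mir144 (0.07) or Mir126a (-0.22).

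Lists of other lineage miRNAs place the 4 genes among further markers, with levels as shares of all counts by library. The myeloid list was Mir223 alone. The endothelial and megakaryocyte list had counts only for Mir126a, and the hepatocyte list only for Mir122. The levels of these lists are therefore those of the genes already described. The erythroid list had 4 of its 5 genes in the tables, of which Mir144 and Mir486 had a count, Mir486 with 9 in resting input replicate 2 and 1 in proliferating input replicate 2. Mir451a and Mir451b were at 0. The striated muscle list (10 genes, among them Mir1a-1 and Mir133a-1) had no count in any library. In the deepest, 0 of 1681148 counts allows up to 0.000178% of what was counted. The treatment of multi-mapping reads is not given, so a count of 0 in these lists need not mean that the RNA was absent. Of the pluripotent stem cell list 1 of 10 genes in the tables had a count, Mir294 with 1. The neural list had between 0 and 17 counts in a library, with 0 for the 3 Mir124a genes, and most for Mir138-2 and Mir138-1.

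Epithelial miRNAs were the other lineage list with substantial counts. All 7 had a count, and their summed share was 0.204% to 0.268% in the resting and 0.0510% to 0.0956% in the proliferating libraries, without overlap. Of the 6 tested, 3 differed between states in the input, where 49.3% of all tested features did, and 6 in the IP, where 52.1% did, and each was higher in resting cells. Their median log2 difference was 1.53 (input) and 2.54 (IP), beside -0.04 and -0.21 over all tested features. Mir141 and Mir200c, which restrain ZEB transcription factors, were the most counted. Stromal and smooth muscle miRNAs held from 0.000469% to 0.00892% of a library, led by Mir10b and Mir199b, and Mir10b, the only tested member, was higher in the resting IP than in the proliferating IP (1.77, SE 0.74, edgeR adjusted p = 0.043). The lymphocyte reference list took from 19.4% to 38.3% of a library, from 5 of its 6 genes, since Mir142 had no count. Why Mir142 had none was not tested, so the share of this list may be partial. The contribution of other cells to the levels of the 4 genes was not tested.

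**Figure D4:**
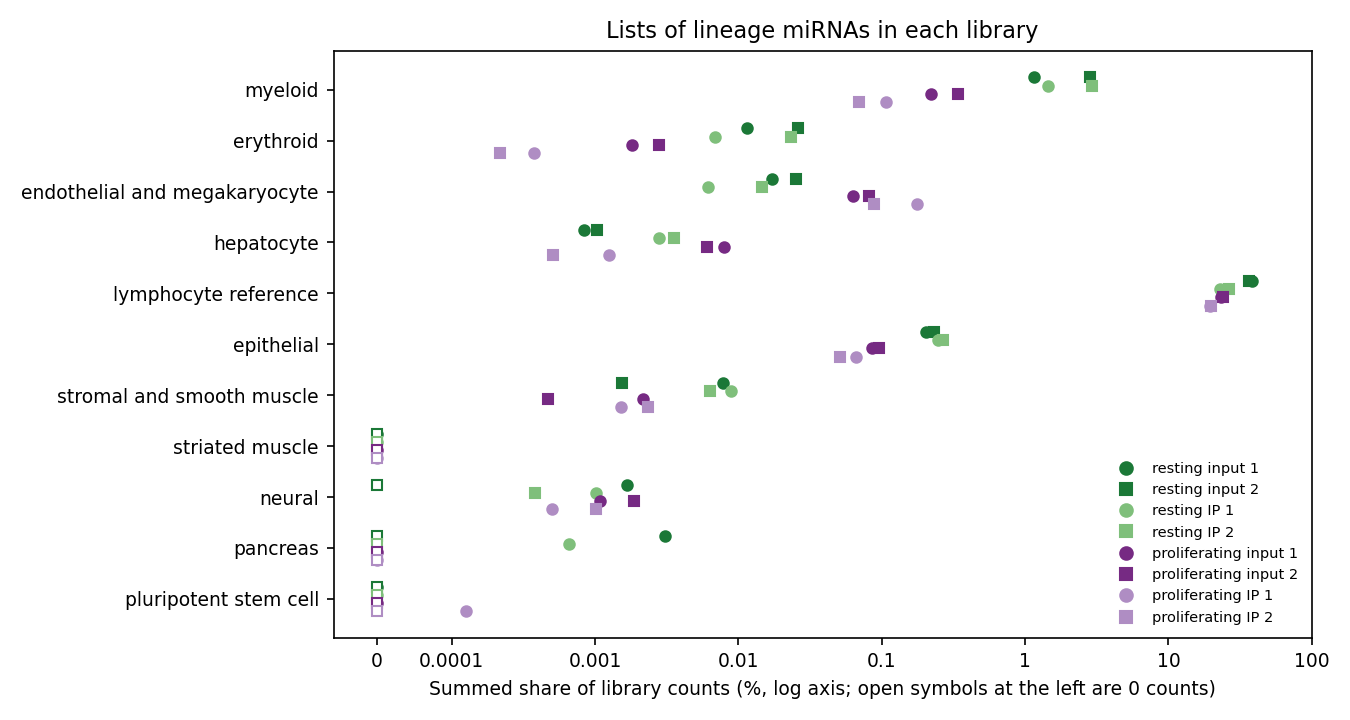
Summed share of all counts (percent, log axis) of each lineage list in each library, with colours for the groups, circles for replicate 1, squares for replicate 2 and open symbols at the left for 0 counts. The myeloid, erythroid and epithelial lists are higher in the 4 resting libraries, the endothelial and megakaryocyte list is higher in the 4 proliferating libraries, and the striated muscle list is at 0 in all 8. The myeloid list is Mir223 alone, Mir126a is the only counted gene of the endothelial and megakaryocyte list, and Mir144 gives all but 10 of the erythroid counts.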

How the data were processed

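Small RNA libraries were QIAseq single-end libraries per the labels, and the submitters' processing notes name STAR 2.7.9a, SAMtools 1.15 and mm10. The authors deposited raw counts per miRNA feature, from deduplicated alignments per the file headers. How reads were counted, with or without strand, and how multi-mapping reads were treated is not given in the sources used here.

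Features were named by exact coordinates, and by strand where RefSeq gave it (1184 of 2202 named). Features were kept with filterByExpr (minimum count 10), and all 8 libraries entered 1 quasi-likelihood fit of 4 group means with TMM factors (edgeR 4.0.16, R 4.3.3; 4 residual degrees of freedom, 36.6 prior). The SE was derived as |log2 fold change| / sqrt(F). DESeq2 1.42.0 was an alternative. Exact intervals are at 95%. Replicates were no duplicates, as their counts differed beyond sampling noise (lowest chi-square per degree of freedom 8.56).

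The 4 genes, the lists and the rule for named features (the genes, features within 10000 bases, the 3 most correlated features, the 2 most abundant of each list, and Mir150 and Mir155) were chosen with earlier results of these data known. Alternatives were other scalings, filters, DESeq2, a replicate block, the groups of the contrast alone, the removal of features that overlap another feature or a small RNA gene (the 4 genes kept, Mir126a included), and each library left out.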

Additional observations from a re-analysis of the deposited data

Results flagged for a closer look

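The difference between IP and input itself differed between resting and proliferating cells, by the interaction test in edgeR, for Mir223 (log2 1.40, adjusted p = 0.018), Mir126a (-2.34, adjusted p = 0.0020) and Mir122 (4.40, adjusted p = 0.013). For Mir122 the share was higher in both resting IPs than in either resting input, which had 3 and 4 counts. It was lower in both proliferating IPs than in either proliferating input. For Mir126a the share was lower in both resting IPs than in either resting input and higher in both proliferating IPs than in either proliferating input. The counting interval of Mir126a in resting IP replicate 2 (0.0122% to 0.0176%) held the share of resting input replicate 1 (0.0173%). For Mir223 the resting libraries overlapped, and the proliferating IPs were both below the inputs. These orders are description only, since how many of all tested features separate likewise was not counted.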

How the results depend on the processing

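Over 20 results for the 4 genes and 330 recomputed values, 270 counted as unchanged and 0 reversed a call. Unchanged values kept their side of the threshold and their direction, or changed sign by less than the SE with neither value passing. Such sign changes occurred for Mir144, IP against input in resting cells, at -0.03 in the main fit and 0.12 with median-of-ratios factors. The higher level of Mir223 and Mir144 in resting input and IP and the lower level of Mir126a in resting IP held in each alternative run. With upper-quartile factors the state difference in the input was lost for Mir126a (-1.03) and Mir122 (-2.17), that of Mir122 in the IP passed (2.48), the IP difference of Mir223 in proliferating cells was lost (-1.17), as was its difference between states (1.62). With DESeq2's median-of-ratios factors in edgeR the last 3 were 1.99, which passed, and -1.07 and 1.55, which did not. With library totals the IP difference in proliferating cells passed for Mir144 (-2.79) and was lost for Mir126a (0.87), and its difference between states was lost for Mir223 (1.80) and Mir126a (-1.93). A minimum count of 50 dropped Mir122, which then had no value, and lost both Mir223 calls (-1.07 and 1.40). No filter lost the Mir122 calls in the input (-2.54) and for IP in proliferating cells (-2.52). The difference of Mir223 between states was also lost without the other features that overlap a feature or small RNA gene (1.33) and with DESeq2 (1.55), and Mir122 passed in the IP with only the groups of the contrast (1.91). The cause of these changes was not tested.

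With 1 library left out, the remaining library of its group is assumed to vary like the other groups. The values then ranged, for state in the input, from -1.57 to -1.19 for Mir126a and -2.88 to -2.29 for Mir122, and in the IP from 1.44 to 2.56 for Mir122. For IP against input in resting cells they ranged from -0.33 to 1.25 for Mir223, -1.22 to 0.72 for Mir144 and -1.67 to -0.43 for Mir126a. In proliferating cells they ranged from -1.40 to -0.83 for Mir223, -2.48 to -1.82 for Mir144, 0.97 to 1.85 for Mir126a and -3.08 to -1.89 for Mir122. For the difference between states they ranged from 0.69 to 2.32 for Mir223, 0.92 to 2.96 for Mir144, -3.20 to -1.82 for Mir126a and 3.96 to 5.13 for Mir122. The number of features called for IP in proliferating cells, 59, ranged from 30 to 63, with 33 and 30 without proliferating input replicate 1 and 2 and 37 without proliferating IP replicate 2. That of the difference, 38, ranged from 11 to 46, with 25 without resting input replicate 1 and 11 and 13 without proliferating input replicate 1 and 2, and it was 25 with median-of-ratios and 22 with upper-quartile factors.

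Scaling moved the median of all features by up to 0.67 on the log2 scale (upper-quartile factors, states in the IP) and by -0.61 for IP in proliferating cells with library totals. The labels do not say that libraries of the same replicate number share an animal, and deviations of replicates in the groups compared correlated across features from -0.09 to 0.18. A replicate block gave 100, 109, 62, 60 and 40 calls for the 5 comparisons, against 108, 114, 63, 59 and 38, and changed no call of the 4 genes (Mir223, state in the input, 3.13). Depth limits Mir122, with 134 counts in all libraries, and Mir144 in proliferating cells.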

Other observations

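Pancreas miRNAs appeared in libraries of a single number. Mir216a, Mir217 and Mir375 together had 11 counts in resting input replicate 1 (0.00307%) and 11 in resting IP replicate 1 (0.000654%), and 0 in the other 6 libraries. A count of 0 allows a share of up to 0.000776% in resting input replicate 2 and 0.000380% in resting IP replicate 2. Mir199b, of the stromal list, had 17 and 14 counts in the same resting input and resting IP against 1 and 3 in replicate 2. Mir143, also of that list, had 4 and 15 counts against 0 and 1. These are raw counts, and resting IP replicate 1 was the deeper library, with 1681148 counts in all against 788869 in replicate 2. Mir223 and Mir144 had the opposite order, with the higher shares in replicate 2 of both resting groups. These features were singled out after their values were seen, and no test was run on them.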
